A study of Mus musculus with 16 samples.

Results

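miR-31 is processed from the single Mir31 hairpin, and the array carried 1 feature for each of its arms, named mmu-miR-31 and mmu-miR-31*. These 2 features, of 650 deposited and of 611 for mouse miRNAs, are described here across 16 liver arrays. They were chosen by name, with the difference between genotypes in the same arrays already known, so that difference is given below as a description and was not tested.

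The arrays measured microRNAs in total liver RNA of male C3H mice, with 4 arrays in each of 4 groups. CTNNB1KO phenobarbital and CTNNB1KO control livers lacked Ctnnb1, the gene for beta-catenin, in hepatocytes. In these mice an albumin-promoter Cre recombinase acts on loxP sites placed in the introns around exons 3 and 6, so cells of the liver that do not use this promoter keep the gene. WT phenobarbital and WT control livers were labelled wild type, and the labels do not say whether these mice carried the Cre or the floxed allele. The phenobarbital groups received 0.05% phenobarbital in the diet for 12 weeks. Controls are labelled as vehicle (water) for the same 12 weeks, while the protocol describes a diet without the drug. The labels give neither the age of the mice nor whether each array came from its own animal, so errors and p-values describe the spread between these arrays. A miRNA array does not measure Ctnnb1, and the deletion was not checked here.

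A miRNA hairpin yields a duplex of its 5′ and 3′ arms. One strand is usually loaded into Argonaute to repress mRNAs that match its seed, and the other, marked by an asterisk in older names, is mostly degraded. miR-31 is best known from epithelia such as skin and intestine, where it promotes proliferation, and in mouse intestinal and mammary stem cells it has been linked to Wnt signalling. Beta-catenin is the transcriptional co-activator of that pathway and maintains the perivenous gene programme of hepatocytes. Phenobarbital activates the nuclear receptor CAR and promotes liver tumours in mice.

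The sequences of both arms are shown because each was measured by its own feature, and they come from RefSeq for GRCm38.p6. Capitals mark the seed, bases 2 to 8 from the 5′ end.
miR-31: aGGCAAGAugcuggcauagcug
miR-31*: uGCUAUGCcaacauauugccauc
The first is listed there as mmu-miR-31-5p, on the minus strand at chr4:88910614-88910635, and the second as mmu-miR-31-3p at chr4:88910577-88910599. The array table gives no sequences, so the asterisk was matched to the 3p arm by name. In the hairpin below, at chr4:88910557-88910662 on the minus strand, capitals mark the arms, which lie 14 bases apart.
Mir31 hairpin: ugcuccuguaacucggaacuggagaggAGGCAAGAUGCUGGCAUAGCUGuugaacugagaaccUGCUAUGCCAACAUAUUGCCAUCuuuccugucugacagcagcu
In the minimum free energy fold of this hairpin, 17 of the 22 bases of miR-31 paired with miR-31*. No other of the 1738 mature mouse entries in the RefSeq table shared the seed of either arm. The nearest other mature sequence was mmu-miR-449c-5p for miR-31, at an edit distance of 6 substitutions, insertions or deletions, and mmu-miR-3963 for miR-31*, at 8. In the gene order of GRCm38.p6 the hairpin lies within the span of the lncRNA Gm49890. Its nearest protein-coding neighbours there are the interferon gene Ifne on one side and Mtap, a gene of the methionine salvage pathway, on the other, with the lncRNA Wincr1 between Mir31 and Mtap.

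Values are the deposited log2 expression values. The viral features of the array served as a background, and the 0.95 quantile of their mean values, 3.98, was taken as a dim floor. Between 100 and 133 mouse miRNAs per array lay above it, the 100 on CTNNB1KO phenobarbital replicate 4 and at least 114 on every other array. Arrays of 1 group correlated between 0.966 and 0.996 across mouse miRNAs.

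miR-31 lay well above the floor on every array and was higher in the livers without hepatocyte beta-catenin. It had log2 values of 7.61, 7.57, 6.93 and 7.09 in CTNNB1KO phenobarbital livers, against 6.75, 6.14, 6.36 and 6.30 in WT phenobarbital livers. All 4 knockout arrays lay above all 4 WT arrays. In controls it had 7.20, 6.17, 7.62 and 7.44 in CTNNB1KO livers, against 6.41, 6.34, 6.27 and 5.93 in WT livers. Here 3 of the 4 knockout arrays lay above every WT array, and replicate 2 lay among the WT values.

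miR-31*, the opposite arm, was a dim feature in WT livers. It had log2 values of 5.33, 4.999, 4.89 and 4.32 in CTNNB1KO phenobarbital livers, against 4.24, 3.97, 4.17 and 4.10 in WT phenobarbital livers. In controls it had 5.05, 5.01, 5.04 and 5.35 in CTNNB1KO livers, against 4.23, 3.96, 4.26 and 3.80 in WT livers. The genotypes did not overlap under either diet. All 8 knockout arrays were above the dim floor, against 3 of 4 WT phenobarbital and 2 of 4 WT control arrays, so the size of the shift of this arm is set in part by background. The lowest knockout value, 4.32, came from CTNNB1KO phenobarbital replicate 4, the array with the fewest miRNAs above the floor.

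**Figure D1:**
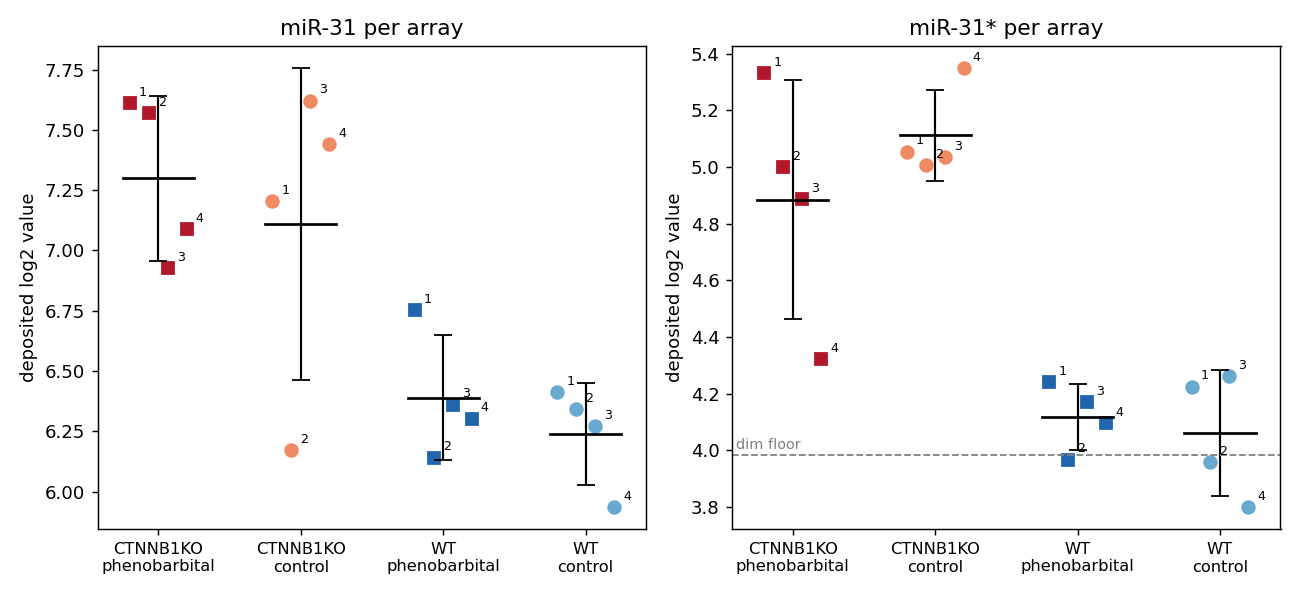
Deposited log2 values of miR-31 (left) and miR-31* (right) on each array, by group; numbers beside points are replicate numbers, bars are the mean and SD of 4 arrays, and the dashed line is the dim floor of 3.98. Knockout arrays lie above WT arrays in both panels except for miR-31 on CTNNB1KO control replicate 2, at 6.17.

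As a difference of group means, miR-31 was higher in CTNNB1KO by 0.91 ± 0.26 under phenobarbital (log2, SE of the limma fit, n = 4 arrays per group), 1.88-fold, and by 0.87 ± 0.26 in controls, 1.83-fold. miR-31* was higher by 0.77 ± 0.17 under phenobarbital, 1.70-fold, and by 1.05 ± 0.17 in controls, 2.07-fold. These differences guided the choice of the 2 features and carry no test. For reading them, 4.42% of the 611 mouse miRNAs were higher on all 4 knockout arrays than on all 4 WT arrays under phenobarbital, and 2.29% in controls. Without CTNNB1KO control replicate 2 the difference of miR-31 in controls was 1.18. Without CTNNB1KO phenobarbital replicates 1 and 2, which carried the muscle miRNA miR-1 at 8.17 and 6.03, that of miR-31* under phenobarbital was 0.48. These replicates also had the highest miR-31 of their group, 7.61 and 7.57. Replicates 3 and 4, which remain, had 6.93 and 7.09, against a WT phenobarbital mean of 6.39, so the difference of miR-31 was smaller too.

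The shifts of the arms did not differ beyond their error between genotypes. The shift of miR-31* minus that of miR-31 was -0.14 ± 0.25 under phenobarbital and 0.18 ± 0.25 in controls (log2, SE pooled over the 4 groups). For phenobarbital minus control it was -0.42 ± 0.25 in CTNNB1KO and -0.09 ± 0.25 in WT. In bulk liver RNA more cells that make a miRNA and more of it per cell cannot be told apart.

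In order of group means, miR-31 stood at 7.30 ± 0.34 in CTNNB1KO phenobarbital, 7.11 ± 0.65 in CTNNB1KO control, 6.39 ± 0.26 in WT phenobarbital and 6.24 ± 0.21 in WT control livers (mean ± SD, n = 4). For miR-31* the knockout groups changed places, with 5.11 ± 0.16 in CTNNB1KO control, 4.88 ± 0.42 in CTNNB1KO phenobarbital, 4.12 ± 0.12 in WT phenobarbital and 4.06 ± 0.22 in WT control livers. Within a genotype the diets overlapped for both arms. The widest spread of miR-31 was that of the CTNNB1KO controls, from 6.17 to 7.62.

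The response to phenobarbital played no part in choosing the features and was tested in the fit over all 611 mouse miRNAs. Neither arm passed in either genotype. In CTNNB1KO livers miR-31 differed by 0.19 ± 0.26 (phenobarbital minus control, limma adjusted p = 0.989, 95% interval -0.35 to 0.73), and in WT livers by 0.15 ± 0.26 (limma adjusted p = 0.999, interval -0.39 to 0.68). miR-31* differed by -0.23 ± 0.17 in CTNNB1KO livers (limma adjusted p = 0.989, interval -0.58 to 0.13) and by 0.06 ± 0.17 in WT livers (limma adjusted p = 0.999, interval -0.30 to 0.41). Of all mouse miRNAs, 0% passed in CTNNB1KO, with 32 at an unadjusted p under 0.05, and 2.78% passed in WT.

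These knockout values depended on single arrays. Without CTNNB1KO control replicate 2 the difference of miR-31 in CTNNB1KO turned to -0.12, and without CTNNB1KO phenobarbital replicate 4 that of miR-31* was -0.039. The interaction, which is the phenobarbital difference in CTNNB1KO minus that in WT, was 0.04 ± 0.36 for miR-31 (limma adjusted p = 0.966, interval -0.72 to 0.80). For miR-31* it was -0.28 ± 0.24 (limma adjusted p = 0.876, interval -0.79 to 0.22), where 1.15% of mouse miRNAs passed.

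Next, the agreement of the arms from array to array was compared within each genotype, since the genotypes formed separate clusters. Over the 8 CTNNB1KO arrays the values gave Pearson r = 0.31 (exact permutation p = 0.392, adjusted p = 0.392 over 4 values) and Spearman rho = 0.48 (exact permutation p = 0.243, adjusted p = 0.324). CTNNB1KO control replicate 2 set miR-31 at its lowest knockout value, 6.17, while miR-31* on the same array, at 5.01, was close to replicates 1 and 3 of its group. On CTNNB1KO phenobarbital replicate 4 miR-31* was at its lowest knockout value, 4.32. There miR-31, at 7.09, lay below replicates 1 and 2 of its group and above replicate 3. Without the 2 arrays farthest from the median of miR-31, CTNNB1KO phenobarbital replicate 3 and CTNNB1KO control replicate 2, r rose to 0.69. With the same arrays left out rho fell to 0.26. Over the 8 WT arrays r was 0.75 (exact permutation p = 0.0299, adjusted p = 0.12) and rho 0.55 (exact permutation p = 0.171, adjusted p = 0.324). Without the 2 arrays farthest from the median, WT phenobarbital replicate 1 and WT control replicate 4, r was 0.46 and rho 0.2. These values cover a narrower range of miR-31. Without WT control replicate 3 r was 0.86 (exact permutation test, adjusted p = 0.0246), so whether the relation passed depended on single arrays.

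**Figure D2:**
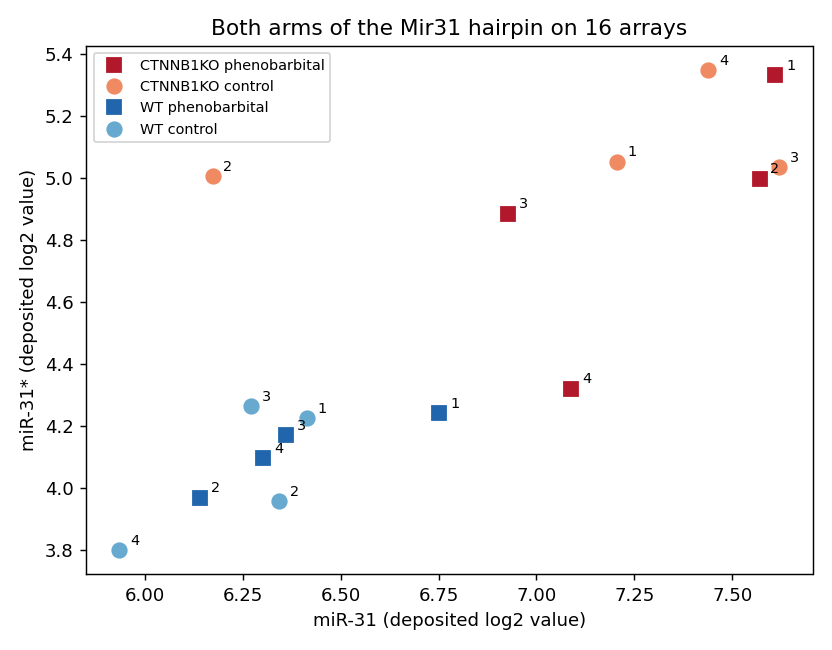
miR-31 (x axis) against miR-31* (y axis), both as deposited log2 values, with 1 point per array and its replicate number. The knockout arrays lie above the WT arrays on the y axis, and CTNNB1KO control replicate 2 and CTNNB1KO phenobarbital replicate 4 stand apart from the other 6 knockout arrays.

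Other hairpins show how far arms usually move together on these arrays. Of 168 hairpins with a feature for each arm, 11 had both arms above the dim floor in at least 1 group. The Mir31 arms were 1 of 3 such pairs in which both arms were higher in CTNNB1KO under both diets, the others being the blood-cell miRNAs miR-142-5p and miR-142-3p and the mesenchymal miRNAs miR-199a-5p and miR-199a-3p. The smallest of the 4 shifts was 0.77 for miR-31 and at most 0.44 for any other pair. The miR-142 arms shifted by 1.09 and 1.42 under phenobarbital and by 0.44 and 0.64 in controls, more than the Mir31 arms under phenobarbital and less in controls. In deviations from the group means over the 16 arrays, the Mir31 arms correlated at r = 0.49, rank 5 of the 11 pairs, which ranged from -0.12 to 0.75 with a median of 0.38. These values are a description over pairs chosen in part by brightness. The Mir31 pair was chosen with its genotype shift known, so its place among the pairs by shift is no result.

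**Figure D3:**
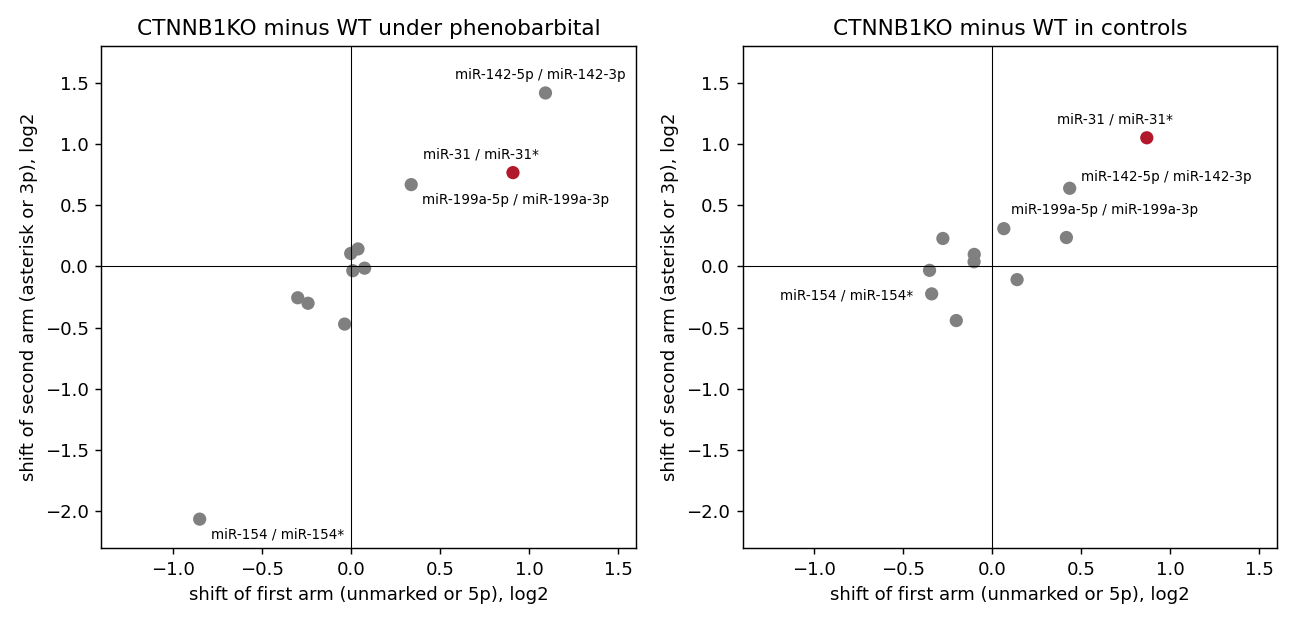
Log2 difference CTNNB1KO minus WT of the first arm (x axis) and the second arm (y axis) of 11 hairpins, under phenobarbital (left) and in controls (right). The Mir31 pair, in red, lies at 0.91 and 0.77 on the left and at 0.87 and 1.05 on the right.

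The genotype difference of both arms was then set beside 17 miRNAs typical of epithelia, namely the miR-200 family, miR-203, miR-205, miR-375 and the cluster of miR-182, miR-183 and miR-96. All 17 were measured, but 14 had means under the dim floor in every group, among them the epithelial miRNAs miR-200c, miR-141, miR-429, miR-205 and miR-375. None passed between genotypes under either diet in the limma fit, and none had an unadjusted p under 0.05. Under phenobarbital 15 were higher and 2 lower in CTNNB1KO, while 344 of all 611 mouse miRNAs were higher. The median difference was 0.062 against 0.017 over all mouse miRNAs, of which 3.76% passed. In controls 9 were higher and 8 lower, while 353 of all 611 mouse miRNAs were higher. The median was 0.0053 against 0.018 over all mouse miRNAs, of which 0.818% passed. The differences ran from -0.07 to 0.17 under phenobarbital and from -0.11 to 0.34 in controls, the last that of miR-200b. The arms of Mir31 were chosen with their larger differences known, and 14 of the 17 were dim. No ranking of the arms against the list is therefore read from these sizes. Between diets none passed in either genotype, with medians of 0.03 in CTNNB1KO and -0.03 in WT.

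Of the 3 members above the floor, miR-203, a miRNA of differentiated skin epithelium, was the brightest. It averaged 4.995 ± 0.32 in CTNNB1KO phenobarbital and 4.93 ± 0.10 in WT phenobarbital livers, a difference of 0.06 ± 0.15 (limma adjusted p = 0.939). In controls it averaged 4.78 ± 0.18 in CTNNB1KO and 4.89 ± 0.14 in WT livers, a difference of -0.11 ± 0.15 (limma adjusted p = 0.932). miR-200b, which keeps epithelial cells from a mesenchymal state by repressing Zeb factors, passed the floor only through CTNNB1KO. It averaged 3.99 ± 0.29 in CTNNB1KO phenobarbital and 3.82 ± 0.10 in WT phenobarbital livers, and 4.12 ± 0.43 in CTNNB1KO control and 3.79 ± 0.13 in WT control livers, with both WT means under the floor, so no size of difference is read from it. In CTNNB1KO controls replicate 2 was at 4.75 and the other 3 arrays between 3.81 and 4.06. miR-200a, from the same cluster, differed by 0.00 ± 0.16 under phenobarbital (limma adjusted p = 0.9996) and by 0.09 ± 0.16 in controls (limma adjusted p = 0.949). Its group means, from 3.985 to 4.07, lay close to the floor, and in each group 3 of the 4 arrays were above it. No size of difference is read from miR-200a either. The summed signal of the 17 spanned 7.62 to 7.84 in CTNNB1KO phenobarbital, 7.60 to 7.68 in WT phenobarbital, 7.62 to 7.79 in CTNNB1KO control and 7.63 to 7.71 in WT control livers (log2 of the summed linear values).

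**Figure D4:**
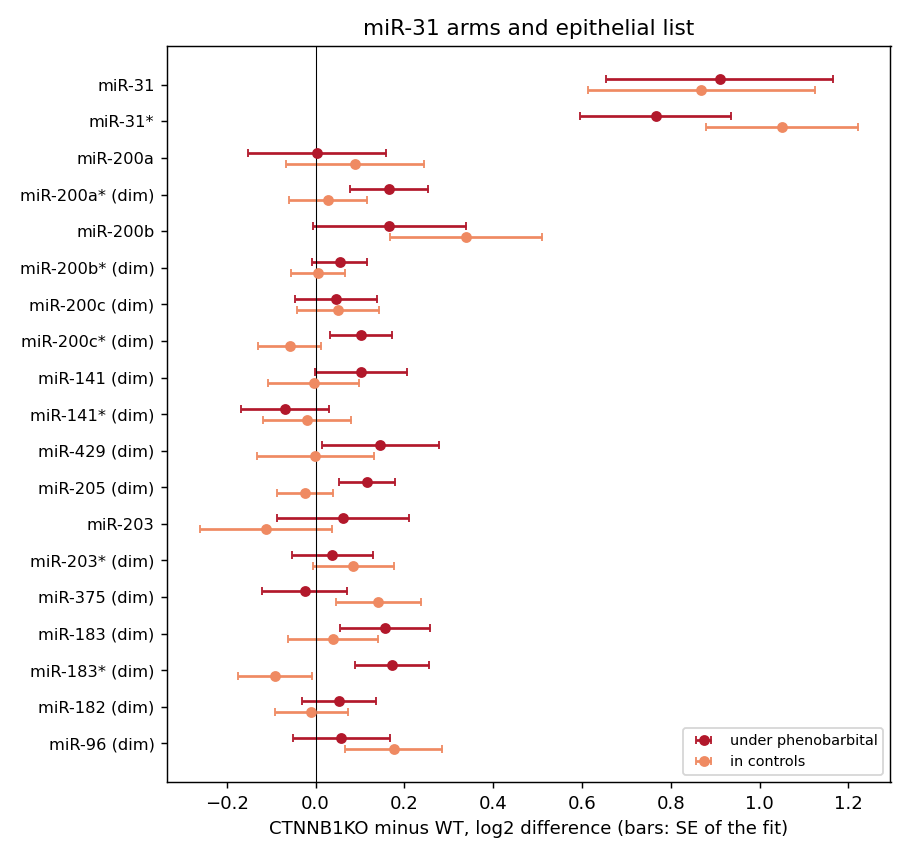
Log2 difference CTNNB1KO minus WT (points) with the SE of the fit (bars) for both arms of miR-31 and 17 epithelial miRNAs, under phenobarbital and in controls; dim marks miRNAs under the floor in every group. Both arms, chosen with this difference known, lie between 0.77 and 1.05. Every epithelial miRNA lies at or below 0.34, the value of miR-200b, whose WT means were under the floor.

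Markers of other cells in the liver were compared with miR-31 array by array. Leukocyte miRNAs, led by miR-142-3p and miR-223 of blood cells, summed to 8.42 to 9.95 in CTNNB1KO phenobarbital, 7.93 to 8.31 in WT phenobarbital, 8.20 to 10.16 in CTNNB1KO control and 8.18 to 8.49 in WT control livers (log2, 9 of 9 measured, 5 above the floor). Between genotypes 8 of the 9 were higher in CTNNB1KO under both diets, and 1 passed, miR-142-5p under phenobarbital, with list medians of 0.50 under phenobarbital and 0.28 in controls. Of all 611 mouse miRNAs, 344 were higher in CTNNB1KO under phenobarbital and 353 in controls, and 0.491% and 0.327% passed as higher. Over the 5 above the floor the list medians were 1.09 under phenobarbital and 0.64 in controls. In the limma fit 6 of the 9 under phenobarbital and 1 in controls had an unadjusted p under 0.05. So did 85 and 49 of all 611 mouse miRNAs, and 54 and 33 of the 141 above the floor. The knockout arrays with the highest leukocyte sums were not those with the highest miR-31. In CTNNB1KO phenobarbital livers the leukocyte sum was 8.42, 8.83, 9.92 and 9.95 in replicates 1 to 4, where miR-31 had 7.61, 7.57, 6.93 and 7.09. In CTNNB1KO controls it was 9.32, 10.16, 8.20 and 8.39, where miR-31 had 7.20, 6.17, 7.62 and 7.44. Under both diets the 2 knockout arrays with the least leukocyte signal had the most miR-31. In controls, knockout replicates 3 and 4 had leukocyte sums within the WT control range of 8.18 to 8.49. Under phenobarbital every knockout sum lay above the WT phenobarbital range of 7.93 to 8.31. The part of leukocytes in the genotype difference of miR-31 was not tested.

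Over the 8 CTNNB1KO arrays, miR-31 and the leukocyte sum gave r = -0.86 (exact permutation p = 0.00067, adjusted p = 0.0208) and rho = -0.90 (exact permutation p = 0.00456, adjusted p = 0.0639). The adjustment ran over 56 values, from 28 combinations of arm, genotype and marker list chosen after the arrays had been seen. Without the 2 arrays farthest from the median of the sum r was -0.92, and without CTNNB1KO control replicate 2 it was -0.93. Each diet holds 4 of these arrays, too few for its own correlation. For miR-31* the same relation had r = -0.66 (exact permutation p = 0.0556, adjusted p = 0.359) and rho = -0.64 (exact permutation p = 0.0962, adjusted p = 0.359). Over the 8 WT arrays, whose leukocyte sums spanned a narrow range, miR-31 gave r = 0.22 (exact permutation p = 0.626, adjusted p = 0.898) and rho = 0.19 (exact permutation p = 0.665, adjusted p = 0.916). Whether the genotypes differ in this relation was not tested.

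**Figure D5:**
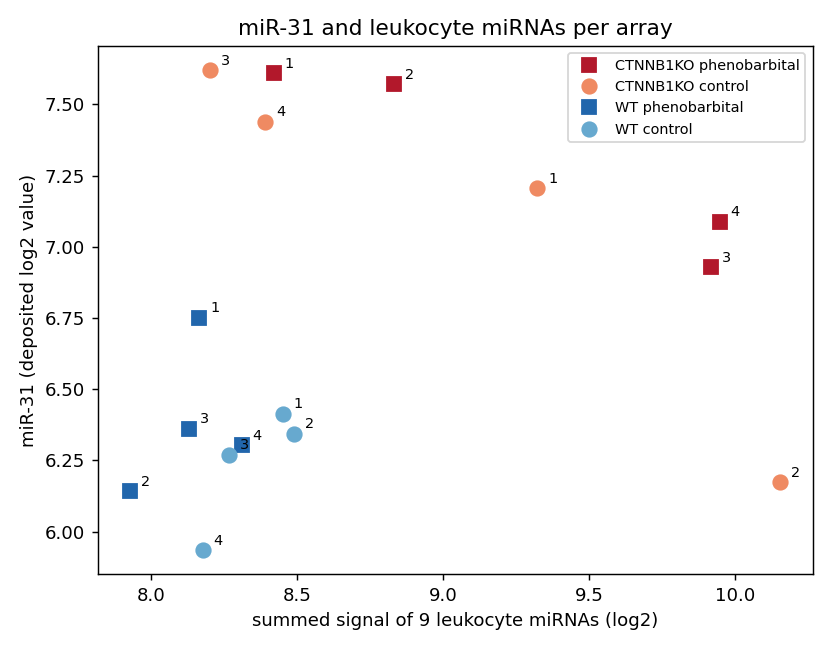
Summed signal of 9 leukocyte miRNAs (x axis, log2) against miR-31 (y axis, deposited log2 value), with 1 point per array and its replicate number. Among knockout arrays miR-31 is lower where the leukocyte signal is higher (r = -0.86), and 7 of the 8 lie above every WT array on the y axis.

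Stellate or mesenchymal miRNAs, led by miR-199a-3p and miR-143, behaved like the leukocyte list within CTNNB1KO, with r = -0.87 against miR-31 (exact permutation p = 0.000744, adjusted p = 0.0208) and rho = -0.95 (exact permutation p = 0.00114, adjusted p = 0.0213). Without the 2 farthest arrays r was -0.88. For miR-31* the same relation had r = -0.43 (exact permutation p = 0.296, adjusted p = 0.55) and rho = -0.64 (exact permutation p = 0.0962, adjusted p = 0.359). Over the 8 WT arrays miR-31 gave r = -0.38 (exact permutation p = 0.358, adjusted p = 0.589) and rho = -0.40 (exact permutation p = 0.327, adjusted p = 0.555). Their sums spanned 7.78 to 8.55 in CTNNB1KO phenobarbital, 7.62 to 7.86 in WT phenobarbital, 7.65 to 8.52 in CTNNB1KO control and 7.70 to 7.90 in WT control livers (10 of 11 measured, 5 above the floor). None of the 10 passed between genotypes, with medians of 0.17 under phenobarbital and 0.04 in controls. Over the 5 above the floor the medians were 0.35 under phenobarbital and 0.31 in controls. In the limma fit 4 of the 10 under phenobarbital and 1 in controls had an unadjusted p under 0.05. So did 85 and 49 of all 611 mouse miRNAs, and 54 and 33 of the 141 above the floor, so no excess is read from these counts. Of the 56 values, 3 had an adjusted p under 0.05: the r of miR-31 with the leukocyte sum and its r and rho with the mesenchymal sum in CTNNB1KO. Among knockout arrays both sums were highest on CTNNB1KO control replicate 2 and CTNNB1KO phenobarbital replicates 3 and 4. These 3 values are therefore not separate results. The part of stellate or mesenchymal cells in the genotype difference was not tested. Against the epithelial sum, miR-31 gave r = -0.47 in CTNNB1KO (exact permutation p = 0.248, adjusted p = 0.534) and 0.41 in WT (exact permutation p = 0.304, adjusted p = 0.55). miR-31* gave r = 0.24 in CTNNB1KO (exact permutation p = 0.588, adjusted p = 0.866) and 0.64 in WT (exact permutation p = 0.0878, adjusted p = 0.359).

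Of the remaining lists, the erythroid miRNAs, led by miR-451 and miR-144, had lower values in CTNNB1KO, where miR-31 had higher ones. They summed to 10.30 to 11.44 in CTNNB1KO phenobarbital, 11.55 to 12.16 in WT phenobarbital, 10.19 to 10.76 in CTNNB1KO control and 11.53 to 12.98 in WT control livers (3 of 3 measured). All 3 were lower in CTNNB1KO under both diets, while 267 of all 611 mouse miRNAs were lower under phenobarbital and 258 in controls. In the limma fit 1 of the 3 passed as lower under phenobarbital and 2 in controls, where 3.27% and 0.491% of all mouse miRNAs did. No miRNA of the endothelial, muscle or hepatocyte lists passed between genotypes. The endothelial pair miR-126-3p and miR-126-5p summed to 10.04 to 10.45 in CTNNB1KO phenobarbital, 10.04 to 10.09 in WT phenobarbital, 10.06 to 10.30 in CTNNB1KO control and 9.96 to 10.19 in WT control livers. Striated muscle miRNAs, led by miR-1 and miR-133b, reached 9.34 and 7.68 on CTNNB1KO phenobarbital replicates 1 and 2 and at most 6.42 in WT livers. The hepatocyte list, led by miR-122 and miR-192, marks the labelled tissue. miR-122, the brightest feature on every array, had the identical value of 15.28 on all 4 WT control arrays and on CTNNB1KO phenobarbital replicate 3, so its spread there is no measure of error. Without it the other 7 summed to 12.28 to 12.51 in CTNNB1KO phenobarbital, 12.39 to 12.49 in WT phenobarbital, 12.24 to 12.57 in CTNNB1KO control and 12.47 to 12.61 in WT control livers, a sum added once the tied values had been seen.

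The miRNAs whose pattern lay nearest to each arm were sought among the 140 other mouse miRNAs above the floor. By root mean square difference of values centred on their own means over the 16 arrays, each arm was the nearest to the other, at 0.34, a measure that includes the genotype shift behind their choice. Next to miR-31 came miR-378* (0.42), miR-425 (0.47), miR-26a (0.48) and miR-148b (0.50). Next to miR-31* came miR-338-3p (0.39), miR-125b-5p (0.41), miR-214 (0.42) and miR-497 (0.43). None of these 8 passed between genotypes, where 3.76% of all mouse miRNAs passed under phenobarbital and 0.818% in controls. Each was higher in CTNNB1KO under both diets, a direction the measure favours. Of all 611 mouse miRNAs, 344 were higher under phenobarbital and 353 in controls. Their differences ran from 0.02 for miR-125b-5p under phenobarbital to 0.54 for miR-214 in controls. Of the 8, miR-214 passed the floor only through CTNNB1KO, and none of the 4 arrays of either WT group lay above it.

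In deviations from the group means, which leave the genotype shift out, other miRNAs were closer than the opposite arm. For miR-31 these were the hepatocyte miRNA miR-194 (r = 0.92), miR-378* (0.87), miR-103 (0.86), miR-30e (0.84) and miR-93 (0.83), and miR-31* stood at rank 46 of 140. Without CTNNB1KO control replicate 2, on which miR-194 and miR-31 were both lowest among knockout arrays, the 5 values were 0.79, 0.68, 0.63, 0.62 and 0.66, and that of miR-31* was 0.61. For miR-31* the nearest were miR-219 (0.83), miR-27b (0.82), miR-185 (0.80), miR-7a (0.79) and miR-425 (0.77), and miR-31 stood at rank 43. Without CTNNB1KO phenobarbital replicate 4 these were 0.60, 0.58, 0.57, 0.49 and 0.54, and that of miR-31 was 0.54. In contrast to miR-31, miR-194 was not higher in CTNNB1KO: it differed by -0.31 ± 0.15 under phenobarbital (limma adjusted p = 0.371) and by -0.16 ± 0.15 in controls (limma adjusted p = 0.899).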

How the data were processed

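Liver RNA was checked for integrity, and 100 ng per array was labelled with an Agilent miRNA kit, per the protocols. The table the authors deposited holds 1 log2 value for each feature on each array. The submitters' processing notes name RMA and limma, without versions, and the sources used here do not give the background step or filters. RMA usually scales arrays to each other, which can remove a shift of most miRNAs. Scanner intensities and detection calls were not used here, and the number of arrays limits the precision.

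From these values, limma 3.58.1 in R 4.3.3 fitted 1 mean per group over 611 mouse miRNAs and 16 arrays (12 residual degrees of freedom), with eBayes and an intensity trend. P-values are two-sided and adjusted by Benjamini-Hochberg over the 611 at 0.05. The fit was tested on simulated data. Correlations over 8 arrays used exact two-sided permutation tests. The hairpin was folded with RNAfold 2.7.2. Marker lists were summed as linear values; they covered epithelial, leukocyte, erythroid, mesenchymal, endothelial, muscle and hepatocyte miRNAs. Named miRNAs were both arms, epithelial members above the floor, the 5 nearest by each likeness measure and the 2 brightest of each other list. The features, lists and tests were chosen with earlier results of these data known. Alternatives covered the replicate block, scaling, array weights, filters and each array left out. No pairing by the replicate numbers of the titles was seen, though this check cannot exclude one. Deviations of same-numbered arrays of different groups correlated between -0.45 and 0.40, with a median of 0.003. Those of arrays with other numbers correlated between -0.58 and 0.55, with a median of -0.001.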

Additional observations from a re-analysis of the deposited data

Results flagged for a closer look

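A single array lay far from the other 3 of its group in 9 of the 132 groups of named miRNAs. Chance alone marks about 1 in 20 independent groups, but many of these miRNAs were chosen for likeness to an arm on the same arrays. The count is therefore not read against that rate. For miR-31*, CTNNB1KO control replicate 4 was high at 5.35, with the other arrays between 5.01 and 5.05. Among the miRNAs set beside it, miR-378* was low on CTNNB1KO control replicate 2 at 3.75 (others 4.33 to 4.40). On CTNNB1KO phenobarbital replicate 4, miR-425 was low at 3.88 (others 4.53 to 4.62) and miR-185 at 3.77 (others 4.73 to 4.89). miR-200b was high on CTNNB1KO phenobarbital replicate 3 at 4.42 (others 3.79 to 3.88), and miR-200a low on WT phenobarbital replicate 2 at 3.82 (others 4.11 to 4.13). In WT phenobarbital livers miR-126-5p was high on replicate 3 at 4.90, miR-133b high on replicate 1 at 3.53, under the dim floor, and miR-192 low on replicate 4 at 11.39.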

How the results depend on the processing

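Between diets and in the interaction, neither arm passed under any alternative run (limma adjusted p from 0.386 to 1). No pairing by replicate number was seen. With the numbers as a block, miR-31 differed by 0.19 in CTNNB1KO and 0.15 in WT between diets (interaction 0.04). miR-31* then differed by -0.23 in CTNNB1KO and 0.06 in WT (interaction -0.28). The counts of miRNAs that passed in that fit were 0 in CTNNB1KO and 17 in WT between diets, and 7 for the interaction. Between genotypes they were 23 under phenobarbital and 4 in controls. Both arms stayed higher in CTNNB1KO under every alternative. Leaving out each array in turn, miR-31 ranged over 0.81 to 1.03 under phenobarbital and 0.70 to 1.18 in controls between genotypes, and miR-31* over 0.62 to 0.95 under phenobarbital and 0.96 to 1.12 in controls. Between diets miR-31 ranged over -0.12 to 0.36 in CTNNB1KO and 0.028 to 0.23 in WT (interaction -0.27 to 0.21), and miR-31* over -0.38 to -0.039 in CTNNB1KO and -0.030 to 0.12 in WT (interaction -0.43 to -0.097). The correlation of the arms ranged over 0.19 to 0.60 in CTNNB1KO and 0.53 to 0.86 in WT, where without WT control replicate 3 it was 0.86 (adjusted p = 0.0246, exact permutation test). Counts ranged over 0 to 1 for phenobarbital in CTNNB1KO, 13 to 18 in WT, 5 to 13 for the interaction, 19 to 34 between genotypes under phenobarbital and 3 to 7 in controls.

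Without both arrays that carried muscle miRNAs, miR-31 between diets in CTNNB1KO turned to -0.10 and its interaction to -0.25. For miR-31* these were -0.51 and -0.57. Between genotypes under phenobarbital miR-31* was then 0.48, and miR-31 was smaller too, with 6.93 and 7.09 on the knockout arrays that remained. In that fit 40 miRNAs passed between genotypes under phenobarbital and 1 between diets in CTNNB1KO. Under quantile scaling miR-31* between diets in WT turned to -0.083, the correlation of the arms in CTNNB1KO to -0.082, and 3 miRNAs passed between genotypes in controls. With array weights miR-31* between diets in WT turned to -0.040, and the counts were 29 between diets in WT, 20 for the interaction, 49 between genotypes under phenobarbital and 9 in controls. Testing only miRNAs above the floor gave 35 under phenobarbital and 8 in controls. A fit of only the compared groups gave 3 in controls, and a test without moderated variances 2 for the interaction. The causes were not tested. Signal over background limits miR-31*, since WT arrays lay at or near the dim floor.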
